A study of Homo sapiens with 24 samples.

Results

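Transcripts of fibrinogen and of 6 other acute phase genes were followed in A549 cells, an established human line derived from a lung adenocarcinoma. The set held 9 of the 60609 gene rows in the expression table and was chosen by name: the 3 fibrinogen chain genes FGA, FGB and FGG, the protease inhibitor genes SERPINA1 and SERPINA3, the haptoglobin gene HP, the lipocalin gene LCN2 and the serum amyloid A genes SAA1 and SAA2. FGB was already known to be higher with the BOP1 siRNA in these libraries when the set was drawn up. For that reason the 9 genes are described, and not tested, in the comparison of the siRNAs. Cells were transfected for 48 h with a pool of siRNAs against BOP1 (siBOP1), a factor that matures the large ribosomal subunit, or with an siRNA against the insect gene firefly luciferase (siFLuc) as control. They then received a mock treatment or interferon beta (IFN) at 1000 U/mL for 8 h or 12 h, which gives 8 groups of 3 polyadenylated RNA libraries: siFLuc or siBOP1, mock or IFN, 8 h or 12 h. All groups share the cell line, the transfection reagent and serum-containing medium. The labels do not say whether the libraries of a group came from separate cultures, so p-values measure the spread between these libraries, which may be technical.

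The acute phase response is the change in plasma proteins that follows infection or injury. Hepatocytes are its main source: IL-6 acts through its receptor and STAT3, and IL-1 through NF-kB, and both act together with C/EBP and other liver-enriched factors on the promoters of acute phase genes. Fibrinogen is assembled from pairs of an alpha, a beta and a gamma chain, encoded by FGA, FGB and FGG, and thrombin turns it into fibrin. Epithelial cells of the lung can also make several of these proteins, and A549 cells have long been used to study fibrinogen made outside the liver.

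The 3 fibrinogen genes lie side by side within 50012 bp of chromosome 4 (GENCODE 29 on GRCh38). FGB (ENSG00000171564.11) spans 154562956 to 154571086 on the plus strand. FGA (ENSG00000171560.16) follows at 154583126 to 154590766 and FGG (ENSG00000171557.17) at 154604134 to 154612967, both on the minus strand. The 250 bases before a RefSeq start site (GRCh38.p14) are shown for FGB and FGA. These are the chain genes whose windows held matches to motifs of both C/EBP and IL-6 responsive factors. Capitals mark the matches, and the last bases of each window fall within the first exon that GENCODE draws. The windows are chr4:154562730-154562979 on the plus strand for FGB and chr4:154590743-154590992 on the minus strand for FGA.
FGB: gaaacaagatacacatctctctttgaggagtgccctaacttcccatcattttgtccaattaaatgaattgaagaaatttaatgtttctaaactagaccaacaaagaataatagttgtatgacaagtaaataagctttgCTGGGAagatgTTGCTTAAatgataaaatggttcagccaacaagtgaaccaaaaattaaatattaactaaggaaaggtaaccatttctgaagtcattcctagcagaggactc
FGA: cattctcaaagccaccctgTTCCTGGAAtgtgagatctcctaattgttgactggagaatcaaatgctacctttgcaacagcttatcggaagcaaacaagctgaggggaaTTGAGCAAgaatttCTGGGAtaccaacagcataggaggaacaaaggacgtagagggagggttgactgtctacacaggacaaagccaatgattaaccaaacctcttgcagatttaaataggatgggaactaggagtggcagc

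Both strands were searched for 4 motifs: TTNNGCAA (C/EBP type), CTGGGA (the core of type II IL-6 response elements), TTCNNNGAA (STAT type) and an NF-kB type motif. Positions count back from -1, the base before the start site. In FGB a C/EBP type match stands on the minus strand at -101 to -94 and CTGGGA at -112 to -107. A second FGB window, counted from a start site at 154563011, holds the same matches at -132 to -125 and -143 to -138. FGA holds a C/EBP type match at -141 to -134, CTGGGA at -127 to -122 and a STAT type match at -231 to -223, which overlaps no other match. The FGG window, not printed because GENCODE places alternative first exons inside it, holds CTGGGA at -161 to -156 and, on the minus strand, at -42 to -37, with no match to the C/EBP letters. Over 35116 promoter windows of the same length, 9.05% hold the C/EBP type, 28.7% CTGGGA, 6.57% the STAT type and 1.73% the NF-kB type. At least 2 matches to CTGGGA, as in FGG, occur in 5.38%. These matches describe letters in the windows and are no evidence of binding. Windows were found for 6 of the 9 genes (FGA, FGB, FGG, SERPINA1, SERPINA3 and LCN2). Among the others, LCN2 holds a C/EBP type match, the second of the SERPINA1 windows CTGGGA, and SERPINA3 none of the 4.

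Values are TPM (transcript abundance per length, scaled to a total of 1000000 per library), so the depth of the libraries is unknown and no counting interval can be given. Each library had 13844 to 14509 genes at 1 TPM or more. Columns of a group carry the numbers 1, 2 and 4. The numbers 1 and 2 match labelled replicates, whereas the columns numbered 4 were tied only to a group (libraries numbered 4 from here on). They stood apart at 12 h, where Pearson r of log2 values within a group was 0.985 to 0.988 between numbers 1 and 2 and 0.961 to 0.977 for pairs with number 4. BOP1 itself was lower in each siBOP1 library than in the matched siFLuc libraries, at 28.1% and 23.5% of the control in mock cells (8 h and 12 h) and 29.6% and 24.1% under IFN. All 5 epithelial markers (EPCAM, KRT8, KRT18, KRT19, CDH1) were above 1 TPM in each library, from EPCAM at 1.92 to 5.48 TPM up to KRT8 at 2086 to 3803 TPM. Their summed level of 4024 to 6864 TPM was mostly KRT8 and KRT18. Of the alveolar lineage markers only NAPSA averaged 1 TPM, and SFTPA1 was listed at 0 throughout. None of 6 hepatocyte markers averaged 1 TPM. Their sum was 0.948 to 1.46 TPM in siFLuc mock, 0.205 to 0.993 in siFLuc IFN, 0.512 to 1.54 in siBOP1 mock and 0.433 to 1.43 in siBOP1 IFN libraries, with APOC3 listed at 0 throughout. Of the leukocyte markers CD14 alone and of the fibroblast markers COL1A1 alone averaged 1 TPM, and none of the endothelial or neutrophil granule markers did. In bulk RNA, a larger share of cells that express a gene and more RNA per cell cannot be told apart.

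The 9 genes covered a wide range of levels. Averaged over 24 libraries, LCN2 stood at 328.7 TPM (rank 382 of all rows), FGB at 76.3, FGA at 60.9 and FGG at 54.0 TPM. SAA1 averaged 26.4 and SAA2 14.4 TPM, SERPINA3 4.53 TPM and SERPINA1 0.695 TPM. HP was listed at 0 in 23 libraries. Of the 9 genes, 8 reached 1 TPM in at least 3 libraries and were tested along with all 16062 genes that did so. SERPINA1 passed only narrowly, with 6 libraries at 1 TPM or more. All of these were siBOP1 libraries except the siFLuc mock 12 h library numbered 2. Without the siBOP1 libraries SERPINA1 would not have been tested.

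FGB, the beta chain, was the most abundant of the 3 chains and was higher in every siBOP1 library than in the matching siFLuc libraries. In siFLuc mock cells FGB was 37.8, 42.7 and 32.2 TPM at 8 h and 43.4, 46.4 and 36.9 TPM at 12 h (libraries numbered 1, 2 and 4, the order used throughout). In siBOP1 mock cells it was 72.7, 75.6 and 77.3 TPM at 8 h and 95.2, 89.7 and 91.7 TPM at 12 h. The lowest siBOP1 library thus lay far above the highest siFLuc library at each time. Under IFN, FGB was 52.03, 52.2 and 56.6 TPM with siFLuc and 102, 117 and 143 TPM with siBOP1 at 8 h. At 12 h under IFN it was 48.6, 77.9 and 48.9 TPM with siFLuc and 131, 119 and 142 TPM with siBOP1. Again no siFLuc library reached a siBOP1 library, although the siFLuc IFN 12 h library numbered 2 stood well above the other two of its group. The log2 fold change of TPM + 1 between the siRNAs was 0.99 and 1.11 in mock cells at 8 h and 12 h and 1.14 and 1.18 under IFN (SE 0.15 each). The last of these was 1.40 without library 2 of the siFLuc IFN 12 h group. In the libraries numbered 1 and 2 alone the values were 0.87 and 1.03 in mock cells and 1.05 and 1.01 under IFN.

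FGA, the alpha chain, showed the same order of groups. It was 38.9, 38.9 and 20.8 TPM in siFLuc mock cells at 8 h and 71.8, 65.4 and 59.2 TPM in siBOP1 mock cells. At 12 h the values were 39.3, 36.9 and 28.4 TPM with siFLuc and 71.7, 59.9 and 83.9 TPM with siBOP1. The siFLuc mock 8 h library numbered 4 was the lowest of all 24, and no library of one siRNA overlapped the other. Under IFN, FGA was 45.9, 37.0 and 37.8 TPM (siFLuc) and 86.4, 92.2 and 108 TPM (siBOP1) at 8 h. At 12 h it was 41.9, 57.8 and 41.5 TPM (siFLuc) and 96.3, 90.5 and 111 TPM (siBOP1). The groups were again apart, with log2 fold changes of 1.02 and 1.02 in mock cells and 1.23 and 1.07 under IFN (SE 0.20 each). Without the siFLuc mock 8 h library numbered 4 the first value was 0.73. In the libraries numbered 1 and 2 alone the values were 0.80 and 0.77 in mock cells and 1.10 and 0.91 under IFN.

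FGG, the gamma chain, followed at a somewhat lower level. In siFLuc mock cells it was 33.4, 34.4 and 22.4 TPM at 8 h and 41.7, 32.04 and 24.3 TPM at 12 h, against 57.2, 51.2 and 50.8 TPM and 73.1, 59.995 and 59.9 TPM in siBOP1 mock cells. Under IFN it was 37.9, 36.5 and 45.0 TPM at 8 h and 37.3, 52.6 and 39.7 TPM at 12 h with siFLuc, against 76.9, 83.4 and 90.6 TPM and 95.6, 74.9 and 85.5 TPM with siBOP1. In none of the 4 comparisons did the siRNA groups overlap, and the log2 fold changes were 0.82, 0.98, 1.06 and 0.98 (mock 8 h and 12 h, then IFN 8 h and 12 h; SE 0.18 each). In the libraries numbered 1 and 2 alone the FGG values were 0.66, 0.84, 1.09 and 0.92. Each chain was higher with siBOP1 in 12 of 12 pairs of libraries that share treatment, time and number, by a median of 2.09-fold for FGA, 2.21-fold for FGB and 2.02-fold for FGG. Over all tested genes, groups did not overlap with siBOP1 higher for 12.4%, 10.4%, 9.84% and 7.43% of genes in the same 4 comparisons. FGB chose the set on this contrast, so these counts describe the chains and test nothing.

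**Figure D1:**
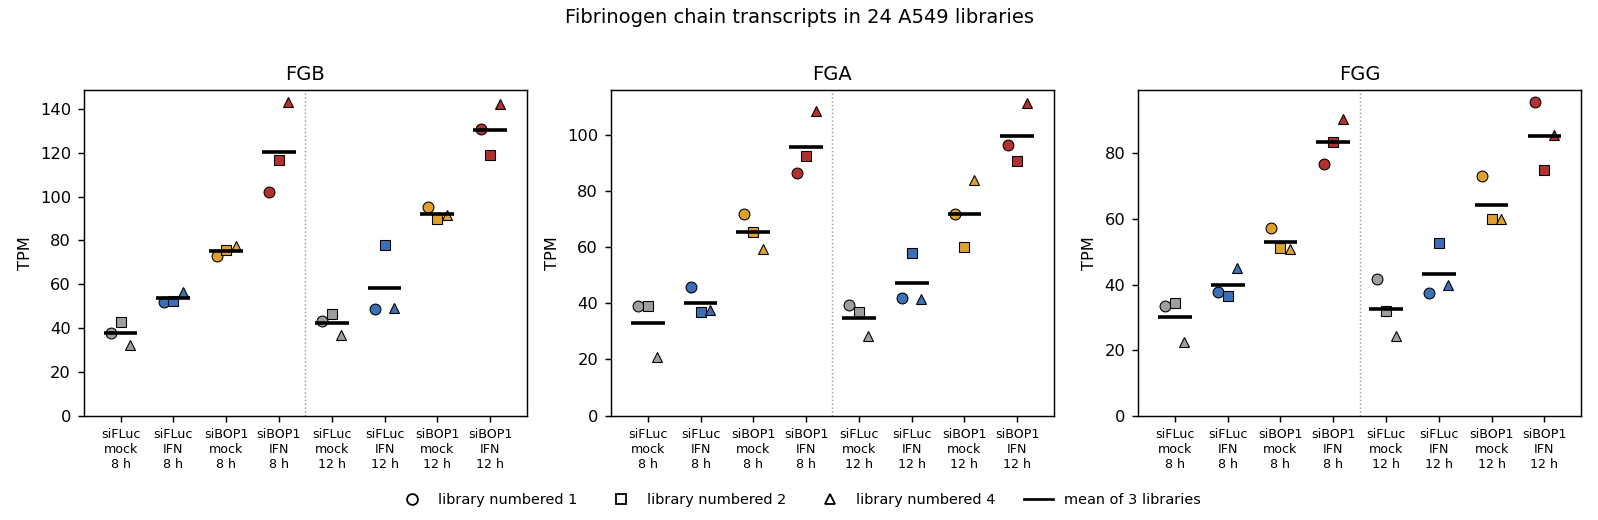
TPM of FGB, FGA and FGG (vertical axes, from 0) in each of the 24 libraries, by siRNA, treatment and time (horizontal axes). Symbols give the library number, colours the siRNA and treatment, and bars the mean of 3 libraries; each siBOP1 point lies above the 3 siFLuc points matched to it in treatment and time.

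The chains kept similar proportions to each other while their level differed. TPM is a value per length, so levels can be compared between genes. FGB was the highest of the 3 chains in 23 of 24 libraries. The FGA to FGB ratio had a median of 0.786 (range 0.647 to 1.03) and the FGG to FGB ratio a median of 0.707 (range 0.601 to 0.961). By siRNA the medians were 0.822 (siFLuc) and 0.774 (siBOP1) for FGA to FGB, and 0.747 and 0.673 for FGG to FGB, with ranges that overlap. Across the 24 libraries, which fall into groups and so share their siRNA and treatment, Pearson r of log2 values was 0.966 for FGA with FGG, 0.965 for FGA with FGB and 0.973 for FGB with FGG. With the group means removed the 3 values lay between 0.701 and 0.742. Of all other tested genes, ALDH2, a mitochondrial aldehyde dehydrogenase, was most like FGA (r = 0.952). FGL1, a fibrinogen-like protein of hepatocytes and itself an acute phase gene on another chromosome, was most like FGB (r = 0.933) and FGG (r = 0.916).

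Of the nearest coding genes on either side, only PLRG1 could be compared with the chains. PLRG1, a splicing factor gene 12520 bp from FGB, averaged 58.4 TPM, close to FGG. Its log2 fold changes ran from -0.20 to 0.08 between the siRNAs and from -0.15 to 0.03 with IFN, and none of the 8 passed the limma threshold (adjusted p of at least 0.629). LRAT, 13977 bp beyond FGG, did not exceed 0.857 TPM and was not tested.

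The next comparison asked whether IFN changed the acute phase genes. The choice of the set cites the siRNA rise of FGB and no IFN effect, but was made with earlier results of these data known. Of the 8 genes tested, SAA2 and SAA1 rose in all 4 comparisons, FGB in 3 and FGG in 1, and no gene fell. This makes 3 of 8 called higher in siFLuc cells at 8 h (limma, Benjamini-Hochberg adjusted p under 0.05 over all genes tested), where 5.77% of all tested genes were called higher and 5.07% lower. At 12 h in siFLuc cells it was 2 of 8 (all genes 7.06% higher, 6.43% lower). In siBOP1 cells it was 4 of 8 at 8 h (5.99% and 9.11%) and 3 of 8 at 12 h (7.17% and 7.58%). The median log2 fold change of the 8 genes was 0.37, 0.41, 0.59 and 0.48 in the 4 comparisons (siFLuc 8 h and 12 h, siBOP1 8 h and 12 h), beside -0.09, -0.06, -0.14 and -0.08 for all tested genes. The chains share an assembled protein and SAA1 and SAA2 a near-identical sequence, so the 8 genes are not independent of each other.

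SAA1 and SAA2 encode serum amyloid A, lipid-binding proteins that are among the most inducible of the acute phase. SAA2 (ENSG00000134339.8) lies at chromosome 11, 18239223 to 18248643, minus strand, and SAA1 (ENSG00000173432.12) at 18266174 to 18269977, plus strand. In siFLuc cells at 8 h SAA1 was 14.2, 17.2 and 9.20 TPM in mock and 42.1, 36.4 and 29.5 TPM in IFN libraries. At 12 h it was 12.4, 13.7 and 6.18 TPM in mock and 45.0, 50.1 and 33.2 TPM in IFN libraries. All IFN libraries stood above all mock libraries, and number 4 was the lowest of each group. In siBOP1 cells SAA1 was 14.1, 8.05 and 6.18 TPM (mock) and 41.1, 46.2 and 36.7 TPM (IFN) at 8 h. At 12 h it was 15.02, 15.2 and 9.23 TPM (mock) and 51.9, 45.5 and 35.3 TPM (IFN). The separation was as clear as with siFLuc. SAA1 rose on the log2 scale by 1.38 (8 h) and 1.94 (12 h) in siFLuc cells (limma adjusted p 0.00264 and 5.19e-05) and by 2.08 and 1.69 in siBOP1 cells (adjusted p 2.05e-05 and 0.000259; SE 0.29 each), or 2.66-fold to 4.37-fold in mean TPM.

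SAA2 was less abundant than SAA1 and also rose in each comparison. In siFLuc cells it was 6.91, 7.11 and 3.38 TPM (mock) and 19.4, 18.9 and 14.3 TPM (IFN) at 8 h. At 12 h it was 6.05, 6.97 and 3.72 TPM (mock) and 33.4, 32.7 and 14.2 TPM (IFN). No mock library reached an IFN library, and the IFN 12 h library numbered 4 lay far below the other two. In siBOP1 cells SAA2 was 6.68, 5.20 and 5.12 TPM (mock) and 20.2, 20.8 and 15.9 TPM (IFN) at 8 h, then 6.56, 5.23 and 6.28 TPM (mock) and 35.9, 33.6 and 17.96 TPM (IFN) at 12 h. Log2 fold changes were 1.49, 2.02, 1.58 and 2.05 (siFLuc 8 h and 12 h, siBOP1 8 h and 12 h; SE 0.30 each; limma adjusted p 0.00187, 5.50e-05, 0.000854 and 4.55e-05). The rises of both genes passed the threshold in every alternative tried and without each library in turn.

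The coding sequences of SAA1 and SAA2 are the same at 355 of 366 positions (97.0%), and 42.7% of the 31-base stretches of the SAA1 transcript also occur in SAA2. How the quantification shared reads between them is not given in the sources used here, so the split between the 2 genes is uncertain. The SAA2 to SAA1 ratio had a median of 0.489 over 24 libraries. Under IFN its median was 0.472 at 8 h (range 0.433 to 0.520) and 0.673 at 12 h (range 0.428 to 0.742). The highest ratios at 12 h came from libraries numbered 1 and 2. Between the siRNAs the groups overlapped for both genes in every comparison, with log2 fold changes of -0.51, 0.30, 0.20 and 0.05 for SAA1 (SE 0.29) and 0.02, 0.12, 0.11 and 0.15 for SAA2 (mock 8 h and 12 h, then IFN 8 h and 12 h; SE 0.30). The genes most like them across the 24 libraries were HLA-L, a pseudogene of the HLA class I region (r = 0.968 with SAA1 and 0.977 with SAA2), IL18BP, which binds and blocks IL-18 (0.966 with SAA1), APOL1 (0.962 with SAA1), the protease gene CTSS (0.968 with SAA2) and UNC93B1, a chaperone of endosomal Toll-like receptors (0.965 with SAA2).

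**Figure D2:**
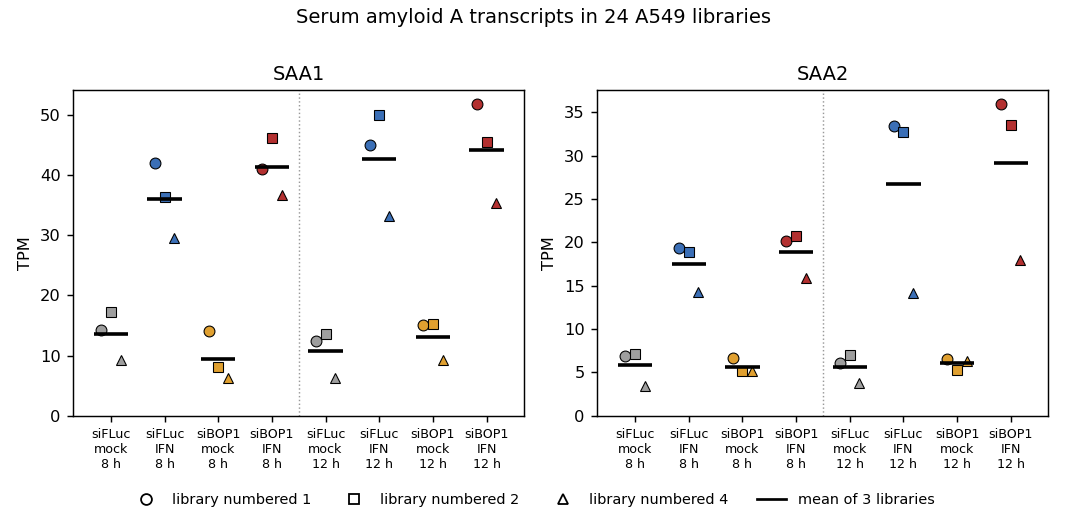
TPM of SAA1 and SAA2 (vertical axes, from 0) in the 24 libraries by siRNA, treatment and time (horizontal axes), with symbols for the library number, colours for siRNA and treatment and bars for the mean of 3. IFN libraries lie above mock libraries in all 4 pairs of groups, and the number 4 triangles are the lowest IFN points of every group.

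The fibrinogen chains responded to IFN less than serum amyloid A. FGB rose from a mean of 37.6 ± 5.26 to 53.6 ± 2.57 TPM in siFLuc cells at 8 h (SD, n = 3 each), and from 75.2 ± 2.29 to 121 ± 20.8 TPM in siBOP1 cells at 8 h (SD, n = 3 each). In siBOP1 cells at 12 h it rose from 92.2 ± 2.79 to 131 ± 11.7 TPM (SD, n = 3 each). On the log2 scale these rises were 0.51, 0.66 and 0.50 with an SE of 0.15 (adjusted p from limma 0.0319, 0.00413 and 0.0297). In siFLuc cells at 12 h the value was 0.43 (adjusted p 0.0633), which passed with the column number as a block (adjusted p 0.0406). FGB was higher with IFN in 12 of 12 pairs that share siRNA, time and number, by 1.12-fold to 1.85-fold.

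The 8 h call of FGB in siBOP1 cells held without each library in turn, while the other FGB calls did not. In siFLuc cells at 8 h the call was lost without any 1 library other than the mock library numbered 2, with log2 fold changes of 0.40 to 0.53. In siBOP1 cells at 12 h it was lost without any 1 library other than the IFN library numbered 2 (0.43 to 0.52). In siFLuc cells at 12 h the call was gained without the IFN library numbered 1 (0.54) or the IFN library numbered 4 (0.54), and without the IFN library numbered 2 the value fell to 0.21 (adjusted p 0.387). With no filter on low values both fragile calls were also lost (adjusted p 0.0664 and 0.0621). Both were lost too in the libraries numbered 1 and 2 alone, at 0.37 in siFLuc cells at 8 h (adjusted p 0.152) and 0.43 in siBOP1 cells at 12 h (adjusted p 0.0734).

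FGG rose with IFN in siBOP1 cells at 8 h, from 53.1 ± 3.56 to 83.6 ± 6.85 TPM (SD, n = 3 each). On the log2 scale this was 0.65 ± 0.18 (SE; adjusted p from limma 0.0162). This call was lost without the mock library numbered 2 (adjusted p 0.0508), the mock library numbered 4 (0.0569) or the IFN library numbered 4 (0.0587). Elsewhere FGG gave 0.41 in siFLuc cells at 8 h, 0.41 in siFLuc cells at 12 h and 0.40 in siBOP1 cells at 12 h (adjusted p 0.161, 0.141 and 0.143). In siFLuc cells at 12 h it passed without the mock library numbered 1 (0.60, adjusted p 0.0356) and gave 0.22 without the mock library numbered 4 (adjusted p 0.469). The siFLuc value at 8 h was also 0.22 without the mock library numbered 4 (adjusted p 0.551). FGA gave 0.33, 0.42, 0.54 and 0.47 (siFLuc 8 h and 12 h, siBOP1 8 h and 12 h; SE 0.20 each) with adjusted p of 0.343, 0.177, 0.0714 and 0.119. Its value in siFLuc cells at 8 h rested on the mock library numbered 4, without which it was 0.04 (adjusted p 0.937). FGA and FGG were each higher with IFN in 11 of 12 pairs of like-numbered libraries. In siBOP1 cells at 8 h the median-of-ratios rescaling and a fit of only those 2 groups both brought FGA past the threshold (adjusted p 0.0244 and 0.0218). In the libraries numbered 1 and 2 alone FGA gave 0.08 in siFLuc cells at 8 h (adjusted p 0.757) and passed in siBOP1 cells at 12 h, at 0.50 (adjusted p 0.0216).

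**Figure D3:**
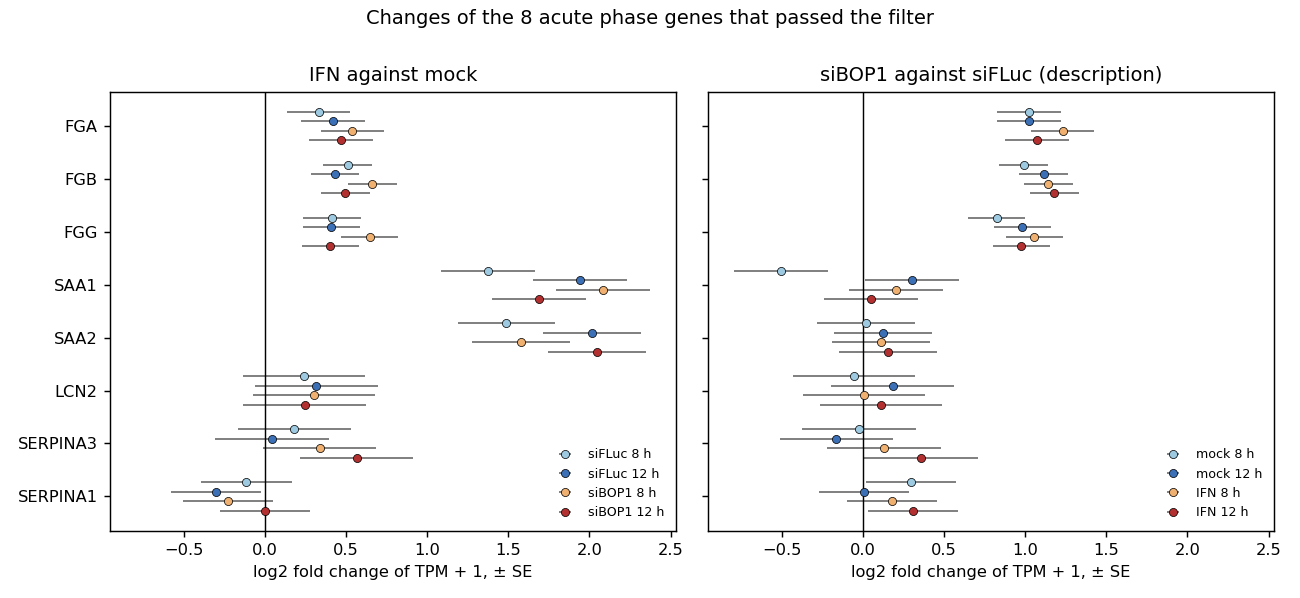
Log2 fold change of TPM + 1 with its SE (horizontal axes) for the 8 tested genes (vertical axis), for IFN against mock on the left and siBOP1 against siFLuc on the right, in 4 comparisons each. SAA1 and SAA2 lie between 1.38 and 2.08 with IFN and between -0.51 and 0.30 for the siRNAs, whereas the fibrinogen chains lie between 0.33 and 0.66 with IFN and between 0.82 and 1.23 with siBOP1.

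LCN2 encodes lipocalin 2, a secreted protein that binds bacterial siderophores and is made by many epithelia. The gene (ENSG00000148346.12) spans chromosome 9, 128149071 to 128153455, plus strand. In siFLuc cells at 8 h LCN2 was 361, 394 and 137 TPM in mock and 402, 404 and 198 TPM in IFN libraries. At 12 h it was 376, 379 and 170.1 TPM in mock and 438, 442 and 242 TPM in IFN libraries. The library numbered 4 was the lowest of each group by a wide margin, so the groups overlapped. In siBOP1 cells it was 300.5, 296 and 196 TPM (mock) and 368, 361 and 245 TPM (IFN) at 8 h, then 349.7, 358 and 283 TPM (mock) and 437, 457 and 295 TPM (IFN) at 12 h. Here too the groups overlapped through number 4. The IFN log2 fold changes of 0.24, 0.32, 0.30 and 0.24 (SE 0.38 each) did not pass (limma adjusted p of at least 0.651). LCN2 was higher with IFN in 12 of 12 like-numbered pairs, by 1.02-fold to 1.45-fold. The share of all tested genes with such pair counts was not determined, for LCN2 or for the fibrinogen chains. In a limma fit of the libraries numbered 1 and 2 alone LCN2 passed in siFLuc cells at 12 h (0.22, adjusted p 0.0113) and in siBOP1 cells at 8 h (0.29, 0.00238) and 12 h (0.34, 0.000670).

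SERPINA3, which encodes the protease inhibitor alpha-1-antichymotrypsin (ENSG00000196136.17; chromosome 14, 94612377 to 94624055, plus strand), showed the same split by column number at a far lower level. It ranged from 1.48 to 7.28 TPM, and number 4 was below the mean of numbers 1 and 2 in all 8 groups, as it was for LCN2 and SAA1. In siFLuc cells SERPINA3 was 3.87, 6.22 and 1.48 TPM (mock) and 4.002, 5.52 and 2.89 TPM (IFN) at 8 h, and 6.04, 6.14 and 2.43 TPM (mock) and 4.39, 6.10 and 3.93 TPM (IFN) at 12 h. In siBOP1 cells it was 4.05, 4.63 and 1.90 TPM (mock) and 4.12, 5.72 and 3.82 TPM (IFN) at 8 h, and 4.96, 4.62 and 2.66 TPM (mock) and 7.004, 7.28 and 4.97 TPM (IFN) at 12 h. Mock and IFN libraries overlapped except in siBOP1 cells at 12 h. There the lowest IFN library (4.972 TPM) barely cleared the highest mock library (4.958 TPM). The share of all tested genes with every IFN library above every mock library was not counted, here or for SAA1 and SAA2. In siBOP1 cells at 12 h the SERPINA3 log2 fold change was 0.56 (SE 0.35, limma adjusted p 0.325). With the column number as a block that value passed (adjusted p 0.0308). The other 3 IFN comparisons gave 0.18, 0.04 and 0.34, with adjusted p of at least 0.579.

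The shift of the libraries numbered 4 was measured in a fit with the group and the number as terms. LCN2 was lower in them by a log2 change of -0.91 at 8 h and -0.73 at 12 h (limma adjusted p 0.000134 and 0.000177), and SERPINA3 by -0.74 and -0.62 (0.00174 and 0.00198). SAA1 was lower by -0.51 and -0.64 (0.00784 and 0.000505) and SAA2 by -0.45 and -0.67 (0.0469 and 0.00193). These 4 of 8 genes were called lower at each time, where 8.72% and 9.09% of all tested genes were. The fibrinogen chains did not pass, at -0.23 and -0.01 for FGA, 0.06 and -0.10 for FGB and -0.06 and -0.21 for FGG, nor did SERPINA1. With the group means removed, LCN2 followed SERPINA3 (r = 0.886), SAA2 (r = 0.857) and SAA1 (r = 0.843) over the 24 libraries, which share the column numbers. Every group holds 1 such library, so their number is balanced over siRNA, treatment and time, but the shift differed between groups. Over the 8 groups, the ratio of number 4 to the mean of numbers 1 and 2 ran from 0.363 to 0.799 for LCN2. For FGA it ran from 0.536 to 1.28, below 1 in 5 groups and above 1 in 3. What sets these libraries apart is not given in the labels, and its part in the results was not tested beyond the values without them.

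**Figure D4:**
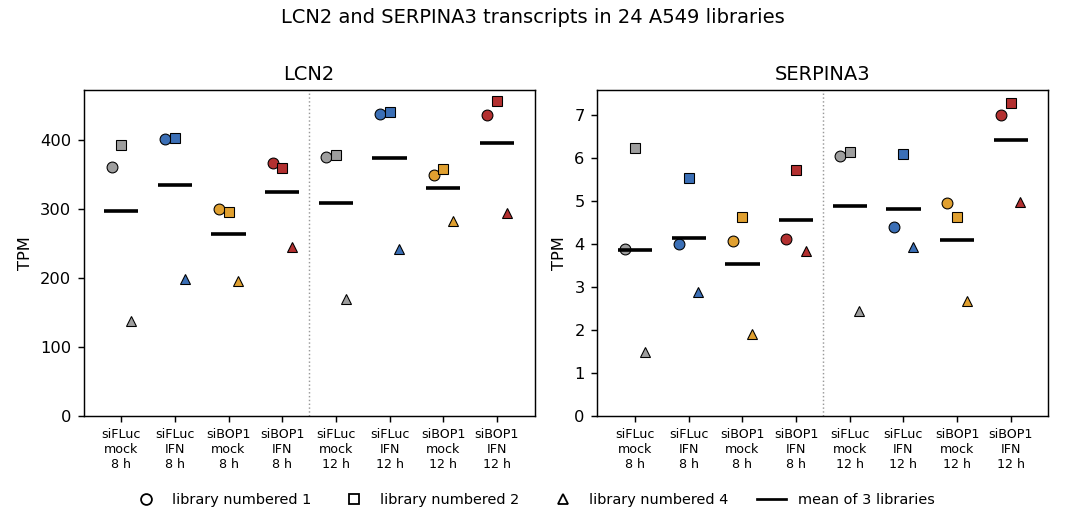
TPM of LCN2 and SERPINA3 (vertical axes, from 0) in the 24 libraries by siRNA, treatment and time (horizontal axes), with symbols for the library number, colours for siRNA and treatment and bars for the mean of 3. The triangles of the libraries numbered 4 are the lowest points of every group.

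Between the siRNAs neither gene was apart. LCN2 gave log2 fold changes of -0.05, 0.18, 0.01 and 0.11 (mock 8 h and 12 h, then IFN 8 h and 12 h; SE 0.38) and SERPINA3 -0.03, -0.16, 0.13 and 0.36 (SE 0.35), with overlapping groups throughout. LCN2 was lower with siBOP1 in 7 of 12 like-numbered pairs and higher in 5. The higher pairs were number 4 in each comparison and number 2 under IFN at 12 h. This split by number was not tested. The LCN2 fold changes thus average over pairs of opposite direction. Leaving out each library in turn, the mock 8 h value ran from -0.54 to 0.22. Across all 24 libraries SERPINA3 was most like LCN2 (r = 0.874), the adhesion molecule gene CEACAM5 (0.839) and the noncoding CCDC18-AS1 (0.833). LCN2 was most like CASC15, a long noncoding RNA (0.923), PCED1B (0.920) and P4HA1, a subunit of the collagen prolyl hydroxylase (0.920).

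SERPINA1 encodes alpha-1-antitrypsin, the plasma inhibitor of neutrophil elastase (ENSG00000197249.13; chromosome 14, 94376747 to 94390693, minus strand). It was at the edge of detection, from 0.219 to 1.88 TPM, with the highest value in the siFLuc mock 12 h library numbered 2. In siFLuc mock cells it was 0.553, 0.751 and 0.419 TPM at 8 h and 0.331, 1.88 and 0.411 TPM at 12 h, against 1.43, 1.11 and 0.387 TPM and 0.940, 0.298 and 1.18 TPM with siBOP1. All groups overlapped. IFN log2 fold changes were -0.11, -0.30, -0.23 and -0.00 (SE 0.28 each; limma adjusted p of at least 0.543), and those between the siRNAs 0.29, 0.01, 0.18 and 0.31. HP, the haemoglobin scavenger haptoglobin (ENSG00000257017.9; chromosome 16, 72054592 to 72061055, plus strand), was listed at 0.06 TPM in the siBOP1 IFN 8 h library numbered 4 and at 0 elsewhere. Its near copy HPR, whose coding sequence is 95.6% identical, stayed at or below 0.257 TPM. SAA4, a constitutive relative of SAA1, stayed at or below 0.594 TPM. The SAA2-SAA4 readthrough row stayed at or below 1.72 TPM.

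No call was made for time over all libraries. Between 12 h and 8 h 0 of 8 were called in siFLuc mock, siFLuc IFN, siBOP1 mock and siBOP1 IFN cells (limma), with 0 of 8 at an unadjusted p under 0.05 in each, where 0.131%, 3.53%, 0.23% and 2.96% of all tested genes were called. The smallest unadjusted p was 0.0676 (limma), for FGB in siBOP1 mock cells. By limma adjusted p the closest was SAA2 under IFN, at 0.50 in siFLuc cells (0.372) and 0.55 in siBOP1 cells (0.356), with an SE of 0.30 each. In the libraries numbered 1 and 2 alone SAA2 passed in both, and LCN2 in siBOP1 mock and siBOP1 IFN cells. In siBOP1 mock cells FGB averaged 75.2 TPM at 8 h and 92.2 TPM at 12 h, and FGG 53.1 and 64.3 TPM. For both genes every 12 h library lay above every 8 h library, as it did for 11.7% of all tested genes. The siRNA by IFN interaction asks whether BOP1 depletion changed the IFN response. It was called for 0 of 8 genes at 8 h and 0 of 8 at 12 h (limma), as for 0.0% of all tested genes at both times, with 353 and 259 of all genes and none of the 8 at an unadjusted p under 0.05. For FGB the interaction was 0.15 at 8 h and 0.06 at 12 h (SE 0.21), each smaller than its error. SAA1 had the largest value of the 8 at 8 h, 0.71 (SE 0.41), and SERPINA3 at 12 h, 0.52 (SE 0.50).

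Other acute phase genes were examined as a list of 24, of which 15 were tested. IFN raised 5, 7, 6 and 6 of them in the 4 comparisons (siFLuc 8 h and 12 h, siBOP1 8 h and 12 h) and lowered none, with a median log2 fold change of 0.30, 0.59, 0.31 and 0.56, beside the medians of all genes given above. Over all tested genes 5.77% to 7.17% were called higher and 5.07% to 9.11% lower. The C1 inhibitor gene SERPING1, listed at 0 in the siFLuc mock libraries, reached a mean of 7.68 TPM with IFN at 8 h and 11.3 TPM at 12 h. CFB, complement factor B, rose by 2.22, 2.78, 1.95 and 2.43 on the log2 scale (limma adjusted p of at most 0.0026). The other genes called in all 4 comparisons were CP (ceruloplasmin), LBP (which binds lipopolysaccharide) and MT2A (a metallothionein), named after their values were seen. CRP, the classic marker of the response, did not exceed 0.128 TPM in any library.

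The BOP1 siRNA raised 1 gene of this list, FGL1, in mock cells at both times and at 8 h under IFN, and none at 12 h under IFN. The median of the list was 0.19 to 0.25 in the 4 siRNA comparisons, beside -0.01 to 0.03 for all tested genes. Over all genes 1.49%, 0.903%, 1.25% and 0.392% were called higher and 0.666%, 0.697%, 0.76% and 0.268% lower (mock 8 h and 12 h, then IFN 8 h and 12 h). FGL1 rose from 59.5 ± 9.39 to 99.3 ± 3.70 TPM in mock cells at 8 h and from 55.7 ± 6.66 to 109 ± 19.7 TPM at 12 h (SD, n = 3 each). Its log2 fold changes were 0.74, 0.95 and 0.70 (limma adjusted p 0.0102, 0.00189 and 0.0148), and 0.61 under IFN at 12 h (0.0664), which passed in the fit blocked on column number. The mock 8 h call was lost without the siFLuc library numbered 4, and the IFN 8 h call without any 1 of 4 libraries (siBOP1 numbers 2 and 4, siFLuc numbers 1 and 4). Of 17 genes for plasma proteins that hepatocytes make or that fall in the acute phase, 6 were tested. The siRNA raised 2, 2, 1 and 1 of these: RBP4, the retinol carrier, by 1.09, 1.01 and 0.90 (all but IFN 12 h), and AMBP, the precursor of alpha-1-microglobulin, by 1.16, 0.82 and 0.96 (all but IFN 8 h, where it passed in the fit blocked on column number). The median of the 6 was 0.36 to 0.42 with the siRNA and -0.34 to -0.04 with IFN. RBP4 lost its mock 12 h call without any of 3 libraries (siBOP1 2 and 4, siFLuc 4) and its IFN 8 h call without any of 4 (numbers 2 and 4 of both siRNAs). AMBP lost its mock 12 h call without any of 4 libraries (all 3 of siBOP1 and siFLuc 1) and its IFN 12 h call without any of 3 (siBOP1 4, siFLuc 1 and 4). F12, coagulation factor XII, was the 1 gene of the list that IFN lowered, by -0.69, -1.002, -0.56 and -0.80 (adjusted p of at most 0.00913); the siBOP1 8 h call was lost after rescaling and without mock library 4 or IFN library 1 or 2.

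The IL-6 family list held 23 genes (21 tested). IFN raised 5, 5, 5 and 6 and lowered 1 in each comparison, beside 5.77% to 7.17% of all tested genes called higher and 5.07% to 9.11% called lower. The list medians were 0.18 to 0.27. SOCS1, an inhibitor of JAK kinases, rose by 3.88, 3.05, 4.04 and 3.61 and LIFR, the receptor for leukaemia inhibitory factor, by 1.495, 2.13, 1.88 and 2.42, while PTPN11, the phosphatase SHP2, fell by 0.47, 0.50, 0.61 and 0.55 (limma adjusted p of at most 0.00643). IL6 was called in siBOP1 cells, at 1.79 and 1.89 (adjusted p 0.0481 and 0.0377), and not in siFLuc cells, at 1.65 and 1.58 (0.0899 and 0.0905); no interaction was called for any gene. The 8 h call in siBOP1 cells was lost without any 1 of the 6 libraries, and the 12 h call without either of mock numbers 1 and 2 or IFN numbers 2 and 4. STAT3, the factor that carries the IL-6 signal, rose in siFLuc cells from 68.4 to 97.4 TPM (8 h) and from 85.7 to 125 TPM (12 h; log2 0.50 and 0.56, adjusted p 0.0258 and 0.011) and from 101 to 138 TPM in siBOP1 cells at 12 h (0.44, 0.0409). In siBOP1 cells at 8 h its value was 0.33 (0.139). These 3 STAT3 calls were lost in 5, 3 and 4 of the 6 refits that left out 1 library. IL6R, IL6ST and SOCS3 passed in none of the 4, with log2 fold changes of -0.39 to -0.22, -0.03 to 0.28 and 0.50 to 0.62.

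Of this list the BOP1 siRNA raised 1 gene in each comparison (all tested genes 0.392% to 1.49%), the cytokine gene IL11. Its mean went from 41.4 to 90.0 TPM (mock 8 h), 40.2 to 73.1 TPM (mock 12 h), 43.0 to 107 TPM (IFN 8 h) and 44.8 to 86.2 TPM (IFN 12 h), with log2 fold changes of 1.11, 0.84, 1.32 and 0.93 (limma adjusted p of at most 0.00828). The mock 12 h call was lost without siBOP1 library 4. The list median was 0.00 to 0.07. IL6 did not pass between the siRNAs (-0.55 to -0.16), nor did IL6R, IL6ST, STAT3 or SOCS3. The IL-1 and NF-kB list held 18 genes (17 tested). IFN raised 4, 4, 4 and 7 of them (medians 0.29 to 0.71), beside 5.77% to 7.17% of all tested genes. The siRNA raised 0 in each comparison (medians -0.12 to 0.08). MYD88, the adaptor of the IL-1 receptor, rose with IFN by 3.01, 2.74, 2.94 and 2.55, and IL1RN, the IL-1 receptor antagonist, by 0.79, 1.16, 0.69 and 0.82. NFKBIZ, an inducible NF-kB cofactor, passed in siBOP1 cells at 8 h and 12 h (0.86 and 0.94, adjusted p 0.0494 and 0.0339) and not in siFLuc cells (0.75 and 0.46). Its calls were lost in 5 and 4 of 6 refits without 1 library.

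Liver-enriched transcription factors formed a list of 21 (18 tested). The siRNA raised 4, 0, 3 and 3 of them and lowered none, with medians of 0.12 to 0.27. Over all tested genes 1.49%, 0.903%, 1.25% and 0.392% were called higher and 0.268% to 0.76% lower, with medians of -0.01 to 0.03. CEBPA went from 4.19 ± 0.26 to 8.36 ± 1.15 TPM in mock cells at 8 h. With IFN it went from 2.05 ± 0.066 to 4.40 ± 0.61 TPM (8 h) and from 3.43 ± 0.34 to 6.71 ± 0.95 TPM (12 h; SD, n = 3 each). The log2 fold changes were 0.85, 0.82 and 0.79 (limma adjusted p of at most 0.007). In mock cells at 12 h it gave 0.53 (0.0619), which passed in the blocked fit, and the IFN 12 h call was lost without siBOP1 library 1. HNF4A rose at 8 h, by 0.73 in mock and 0.69 in IFN cells (adjusted p 0.0265 and 0.0368), FOXA3 by 0.60, 0.66 and 0.84 in all but mock 12 h, and CEBPB by 0.48 (mock 8 h) and 0.61 (IFN 12 h; 0.0456 and 0.0179). The call was lost in 4 and 5 of 6 refits without 1 library for HNF4A, in 6, 6 and 3 for FOXA3 and in 6 and 5 for CEBPB. FOXA1, FOXA2 and CEBPD did not pass between the siRNAs.

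With IFN 2, 2, 2 and 4 of the 18 genes were called higher and 2, 1, 4 and 0 lower (medians -0.22 to -0.03), beside 5.77% to 7.17% of all tested genes called higher and 5.07% to 9.11% called lower. CEBPA fell by 0.76 and 0.61 with siFLuc (8 h and 12 h) and by 0.79 with siBOP1 at 8 h (limma adjusted p of at most 0.00472). CEBPB and CEBPD were called at 12 h, CEBPB at 0.43 and 0.70 and CEBPD at 0.78 and 0.79 (siFLuc and siBOP1 cells). Of these, the CEBPB call in siBOP1 cells alone held without each library in turn. HNF4G rose by 1.11 and 1.09 and GATA6 by 0.98 and 0.99 at 8 h.

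Coagulation and fibrinolysis genes numbered 27 (17 tested), with medians of -0.07 to -0.02 with IFN and -0.06 to 0.02 with the siRNA. IFN raised 3, 3, 3 and 4 and lowered none, beside 5.77% to 7.17% of all tested genes called higher and 5.07% to 9.11% called lower. The rises were led by TGM2, a transglutaminase that can crosslink fibrin and fibrinogen, with 2.12, 2.55, 2.24 and 2.36. Over all tested genes the siRNA called 0.392% to 1.49% higher and 0.268% to 0.76% lower. Of the 17 it raised 1, 0, 1 and 0 and lowered 0, 1, 0 and 0 (mock 8 h and 12 h, then IFN 8 h and 12 h). The gene it lowered, named after its values were seen, was TFPI2, a protease inhibitor gene, at -0.52 (limma adjusted p 0.0234). Of 18 partner genes (10 tested), IFN raised 1, 2, 1 and 2 and lowered 0, 1, 1 and 1 (medians -0.06 to 0.15, and 0.20 to 0.35 with the siRNA). ICAM1, an adhesion molecule that binds fibrinogen, rose at 12 h by 1.51 and 1.64. SLC22A17, a lipocalin 2 receptor, passed with the siRNA at 8 h (0.57 and 0.61, adjusted p 0.0428 and 0.03), and the calls were lost in 6 and 4 of 6 refits. Of 8 other serpin genes of the chromosome 14 cluster 1 was tested, SERPINA6, next to SERPINA1. It fell with IFN in siFLuc cells at 12 h (-0.81, adjusted p 0.00317) and was higher with the siRNA under IFN at 8 h (0.77, adjusted p 0.025).

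The siRNA calls rest on the spread shared by all 24 libraries. In fits of only the 2 groups compared, 1 of the 27 siRNA calls named here from the lists passed, AMBP in mock cells at 8 h, whereas 58 of the 70 IFN calls did. Without each library in turn, 9 of the 27 and 54 of the 70 held throughout. In the libraries numbered 1 and 2 alone 17 of the 27 and 69 of the 70 passed.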

How the data were processed

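Library preparation used a stranded mRNA kit and total RNA, per the labels' protocols. The authors deposited TPM values, and each column sums to 1000000. The aligner, quantification tool, genome build and annotation behind them are not given in the sources used here. TPM keeps no depth, so precision rests on the 3 libraries of a group. All 24 columns were used. The 8 columns numbered 4 match no labelled replicate number and were assigned to their group only.

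The fit was limma 3.58.1 (R 4.3.3; eBayes with an intensity trend) on log2(TPM + 1). A gene entered if 3 or more libraries reached 1 TPM. All 24 libraries were fitted together with a mean for each of the 8 groups, and p-values were adjusted over all genes of a comparison by Benjamini-Hochberg with a threshold of 0.05. Fold changes are on this log2 scale, which understates changes of low genes. The fit was also run on simulated data with independent normal spread between libraries. These lack the deviations that same-numbered libraries share, so the run cannot show how the fit handles them. The members and lists were chosen with earlier results of these data known, and support nothing by themselves. Named genes were the 9 members, BOP1, the 3 genes most like each member, neighbours and near copies, a fixed set of IL-6 and liver factor genes, and of each list the up to 2 largest rises and falls among genes called in at least 2 of 4 comparisons of IFN or of siRNA. Some results under this rule, and 1 of the motifs planned, are not reported here.

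Same-numbered libraries deviated together: over 24 group pairs and numbers, r of deviations from the group means was 0.115 to 0.508, though for numbers 1 and 2 alone it was -0.012 to 0.156. A block on the column number within each time was therefore run as an alternative. The others were log2(TPM + 0.1), all genes with a value above 0, median-of-ratios rescaling, only the groups compared, only the libraries numbered 1 and 2, and leaving out each library in turn. Symbols were found for 60340 of 60609 rows; 58457 row IDs are in GENCODE 29. Promoters are from RefSeq. Motifs were matched with regular expressions in Python 3.11.15, and coding sequences were aligned with Biopython 1.88.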

Additional observations from a re-analysis of the deposited data

Results flagged for a closer look

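SAA1 moved in opposite directions with time in siFLuc mock cells and in 2 other groups, in each pair of libraries of these 3 groups that share a number. In siFLuc mock cells it was lower at 12 h than at 8 h in all 3 pairs (14.2, 17.2 and 9.20 TPM at 8 h against 12.4, 13.7 and 6.18 TPM at 12 h), a log2 change of -0.33 (SE 0.29). It was higher at 12 h in all 3 pairs of siFLuc IFN cells (0.24) and of siBOP1 mock cells (0.48). In siBOP1 IFN cells the pairs were split (41.1, 46.2 and 36.7 TPM at 8 h against 51.9, 45.5 and 35.3 TPM at 12 h), with a log2 change of 0.08. None of the 4 changes passed the limma threshold (adjusted p 0.664, 0.691, 0.641 and 0.918), the libraries of the groups overlapped, and the difference between the groups was not tested. The pattern came from a search of all tested members over every pair of time comparisons and every pair of IFN comparisons. How often such a split would arise by chance in that search was not tested.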

How the results depend on the processing

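Of 384 refits of the IFN effects of the 8 genes, 340 kept their direction and side of the threshold, 17 lost and 11 gained a call, and 16 reversed. All 17 losses fell on the fibrinogen chains. FGB lost calls in 10 refits without 1 library and in 4 other refits, and FGG in 3 without 1 library. Of 384 refits of their siRNA effects 380 moved by less than the spread between libraries. Of 1404 refits of named list genes 1166 kept their call, 202 lost it, 36 gained it and 0 reversed. The number of members called with IFN stayed within 1.5 times its value under each alternative. That band is coarse for counts of 2 to 4 genes, and the lost FGB and FGG calls lie within it. Reversals were small. SERPINA1 with IFN in siBOP1 cells at 12 h gave 0.067 with a pseudocount of 0.1, 0.038 after rescaling and 0.25 in libraries 1 and 2 alone. SERPINA3 with IFN in those libraries gave -0.054 (siFLuc 8 h) and -0.20 (siFLuc 12 h). Without 1 library each, SERPINA1 ran from -0.50 to 0.056 (siFLuc 12 h) and -0.22 to 0.15 (siBOP1 12 h), SERPINA3 from -0.24 to 0.53 (siFLuc 8 h) and -0.31 to 0.22 (siFLuc 12 h), and LCN2 from -0.25 to 0.58 (siFLuc 8 h, negative without the mock library numbered 4) and -0.066 to 0.60 (siFLuc 12 h, negative without the mock library numbered 4). FGA between the siRNAs in mock cells at 8 h ran from 0.73 to 1.17, and FGB under IFN at 12 h from 1.06 to 1.40.

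Counts over all genes varied with the fit. With the replicate block, IFN called 3370 (8 h) and 4326 (12 h) genes with siFLuc and 4653 and 4487 with siBOP1 (without the block 1741, 2166, 2426 and 2370). The siRNA called 1364, 1231, 1415 and 606 (mock 8 h and 12 h, then IFN 8 h and 12 h; without it 347, 257, 322 and 106), and time 1345, 2944, 723 and 2411 in siFLuc mock, siFLuc IFN, siBOP1 mock and siBOP1 IFN cells (without it 21, 567, 37 and 475). In fits of only the groups compared, the counts were 951 (IFN, siFLuc 12 h), 41, 10, 23 and 1 (siRNA) and 1, 4, 2 and 12 (time), where fewer libraries give the spread. In the libraries numbered 1 and 2 alone they were 3403 and 3831 (IFN at 12 h, siFLuc and siBOP1), 589 (siRNA, IFN 8 h), 263, 198 and 897 (time in siFLuc mock, siBOP1 mock and siBOP1 IFN cells) and 1 (interaction at 8 h), with 1, 1 and 2 members called for time in siFLuc IFN, siBOP1 mock and siBOP1 IFN cells. Rescaling gave 32 (time, siFLuc mock), and no filter 377 and 310 (time, siFLuc IFN and siBOP1 IFN) and 4 (interaction, 8 h). The cause of these differences was not tested. Rescaling raised the median of all genes by 0.136 for IFN in siBOP1 cells at 8 h and lowered it by -0.103 for time in siBOP1 IFN cells.

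Leaving out 1 library gave 1596 to 2179 (IFN, siBOP1 8 h) and 1541 to 2513 (IFN, siBOP1 12 h), then 138 to 255, 74 to 203, 123 to 200 and 32 to 128 for the siRNA, and 8 to 57, 177 to 595, 6 to 15 and 113 to 412 for time. Depth is unknown, and the 3 libraries of a group limit the precision.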
